A study of Mus musculus with 6 samples.

Results

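Cell cycle and proliferation genes were followed in brain RNA of mice that carried MCF10DCIS cells, human breast cells that form lesions like ductal carcinoma in situ. The set was a fixed list of 47 mouse genes, found by symbol among the 56748 genes of the deposited table, and all 47 were present. The day 28 group held 3 libraries of homogenized brain tissue taken 28 days after implantation, and the day 3 group held 3 libraries taken 3 days after implantation. Both groups carried the same implant, MCF10DCIS cells with the vesicle protein CD63 fused to NanoLuc, a light-producing enzyme. The series title calls the model intraductal. Strain, sex, age and host immune status were not stated in the labels, and brain of mice without an implant was not analysed here. Separate animals are not stated for the libraries within a group, so the p-values speak only to library-to-library spread, which may be technical.

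A dividing cell passes through G1, S, G2 and mitosis. D-type cyclins and the transcription factor E2F1 carry it out of G1, the MCM helicase and PCNA copy the DNA in S phase, and cyclin B with CDK1 drives mitosis. CDK inhibitors hold the cycle back. In the adult mouse brain most neurons have left the cycle, and division is found mainly in neural progenitors of the subventricular zone and hippocampus, in oligodendrocyte precursors, and in some microglia and vascular cells. Several members also have roles in cells that do not divide. In whole tissue, fewer cells of a type and less RNA per cell cannot be told apart.

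The mRNAs of mitosis and of S phase are switched on by different promoter elements. Mitotic genes carry the cell cycle genes homology region (CHR) beside CCAAT boxes, which the DREAM and MYB complexes and NF-Y read. S phase genes carry E2F elements. RefSeq promoters (GRCm38.p6) of 250 bases before to 50 after the transcription start were available for 37 of the 47 members. Stretches from 95 bases before the start to 25 after it are shown, to set the elements of members described below beside their values. Capitals mark letters found on either strand. For the CHR these were TTTGAA, its variant TTCGAA and the further variant TTTAAA. The CCAAT box was searched as spelled. For E2F they were TTCCCGC, along with TTGGCGC, and also the forms TTCGCGC and, last, TTGCCGC. Ccnb2 (chr9:70421530-70421649, minus strand), Cdc20 (chr4:118437319-118437438, minus strand), Kif11 (chr19:37376287-37376406, plus strand) and Cdk1 (chr10:69352888-69353007, minus strand) are mitotic genes. Mcm6 (chr1:128359681-128359800, minus strand) and Ezh2 (chr6:47595006-47595125, minus strand) are S phase genes, and Ccne1 (chr7:38107466-38107585, minus strand) is a G1/S gene.
Ccnb2: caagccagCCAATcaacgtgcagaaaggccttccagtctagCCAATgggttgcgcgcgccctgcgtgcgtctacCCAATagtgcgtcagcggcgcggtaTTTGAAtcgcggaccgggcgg
Cdc20: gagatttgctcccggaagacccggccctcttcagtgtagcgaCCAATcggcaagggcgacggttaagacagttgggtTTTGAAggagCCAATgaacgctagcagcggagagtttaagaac
Kif11: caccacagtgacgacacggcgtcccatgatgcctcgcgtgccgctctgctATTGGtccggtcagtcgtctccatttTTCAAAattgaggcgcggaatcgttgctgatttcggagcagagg
Cdk1: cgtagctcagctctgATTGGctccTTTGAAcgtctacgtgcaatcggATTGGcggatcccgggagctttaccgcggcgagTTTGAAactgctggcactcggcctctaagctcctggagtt
Mcm6: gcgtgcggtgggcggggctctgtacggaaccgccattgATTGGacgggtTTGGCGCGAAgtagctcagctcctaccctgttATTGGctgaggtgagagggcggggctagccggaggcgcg
Ezh2: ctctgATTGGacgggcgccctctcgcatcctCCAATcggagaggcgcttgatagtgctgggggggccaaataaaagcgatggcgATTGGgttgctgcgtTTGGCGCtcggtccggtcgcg
Ccne1: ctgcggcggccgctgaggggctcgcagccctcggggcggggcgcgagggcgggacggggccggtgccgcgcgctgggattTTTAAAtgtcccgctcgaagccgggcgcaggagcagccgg

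In Cdc20 a CCAAT box began at position -53 and the CHR at -18, counted from the start at +1, and in Kif11 the same pair, on the other strand, began at -45 and -19. The Mcm6 stretch held overlapping E2F letters on both strands, at -46 and -43, and no CHR, while the Ccne1 stretch held a CHR variant at -15 and no E2F letters. Of the 21 mitotic members with a promoter, 19 held both CHR and CCAAT letters within the 300-base window (90.5%), against 5 of 14 G1/S and S phase members (35.7%) and 12.8% of the 27025 genes in the promoter table. Taken singly, CHR letters stood in 95.2% of mitotic, 42.9% of G1/S and S phase and 31.9% of all promoters, and CCAAT letters in 90.5%, 71.4% and 41.1%. E2F letters stood in 9 of 14 G1/S and S phase members (64.3%), in 3 of 21 mitotic members (14.3%) and in 10.9% of all genes. Mitotic members here are cyclins A2, B1 and B2, Cdk1, the mitotic kinases and checkpoint genes, the spindle genes, Mki67 and Top2a. A letter match describes the sequence and does not show that a factor binds there, and E2F letters that end in CCAA overlap a CCAAT box where T follows.

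Each library held 14230520 to 16059196 reads at day 28 and 11958137 to 15033955 at day 3. Some day 3 libraries stood apart in tissue content. The 12 cerebellar granule cell markers summed to 5967, 5704 and 8030 normalized counts in day 28 replicates 1 to 3, and to 29289, 26313 and 5328 in day 3 replicates 1 to 3, with 0 of 12 called. Striatal markers ran the other way, between 29327 and 36510 at day 28 and between 16806 and 24324 at day 3, with 1 of 10 called. Hepatocyte markers summed to 124234 in day 3 replicate 2 and to between 11343 and 15284 elsewhere. Much of the sum elsewhere was Ttr, also listed as a choroid plexus marker, at between 6230 and 11029. Alb, another marker of the hepatocyte list, had 1021, 1139 and 582 normalized counts at day 28 and 21.1, 67650 and 477 at day 3.

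None of the 38 genes that could be tested passed the threshold between day 28 and day 3, and the other 9 members were read too rarely for a test. Normalized counts are reads divided by the size factor of the library, and the 38 members whose average over the libraries reached 10 were tested. With limma and Benjamini-Hochberg adjustment over all 16162 tested genes, 0 of the 38 passed an adjusted p of 0.05, where 0.192% of all tested genes did (0.0681% higher and 0.124% lower at day 28). The smallest adjusted p of a member was 0.371, for Ccne1. At an unadjusted p under 0.05 there were 2 members, Ccne1 and Cdkn1b, against 13.4% of all tested genes, and voom, a weighted fit to the recovered reads, also gave 0 members past the threshold and 2 at the unadjusted level. The log2 differences, day 28 minus day 3, were positive for 16 members (48.6% of all tested genes) and negative for 22, with a median of -0.07 over the members and -0.01 over all tested genes.

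**Figure D1:**
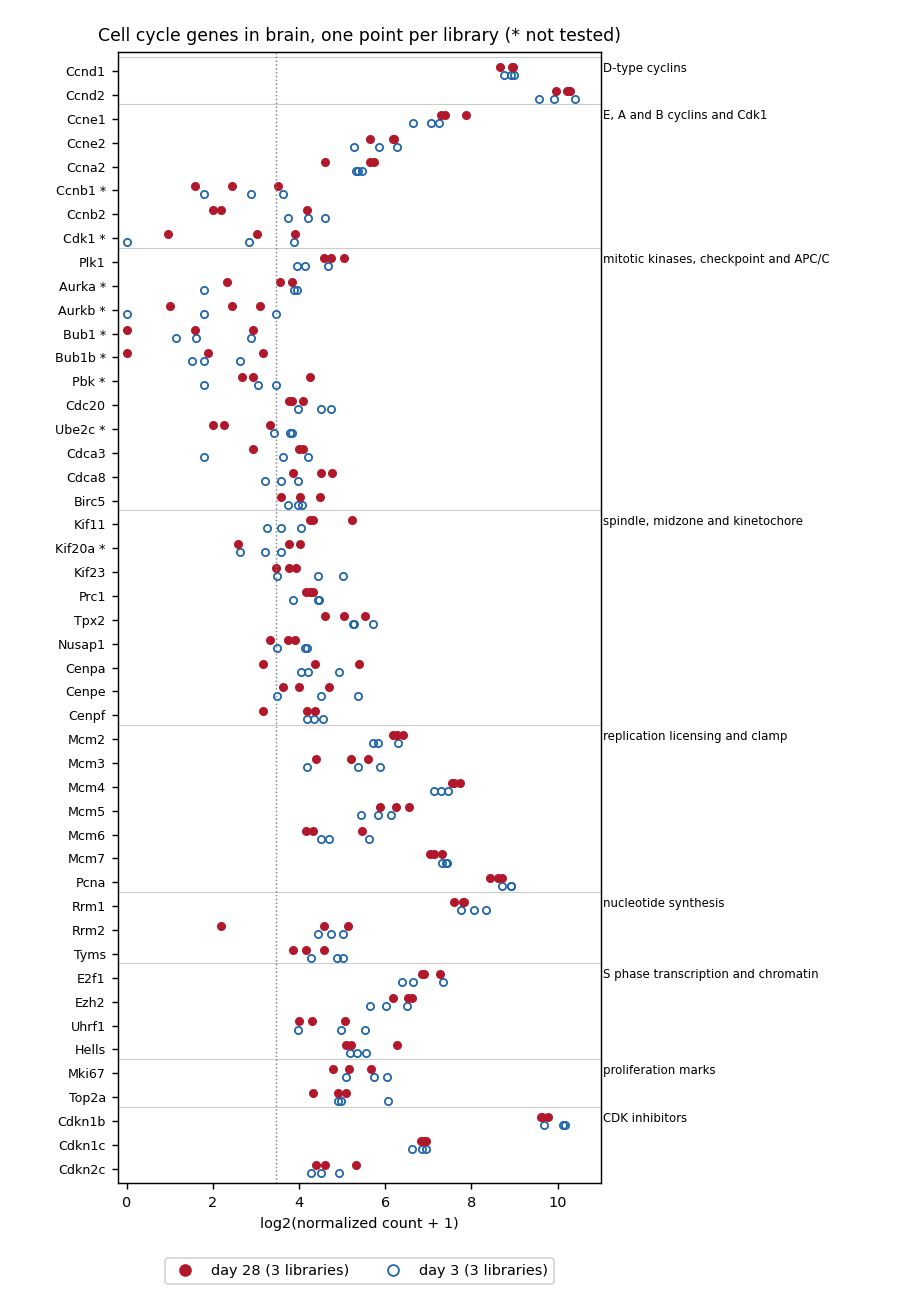
Level of each of the 47 genes on the log2(normalized count + 1) axis, with 1 point per library (day 28 filled, day 3 open), grouped by role; the dotted line marks a normalized count of 10 and asterisks mark the 9 genes not tested. Filled and open points interleave in most rows, and the D-type cyclins, Pcna and Cdkn1b lie far to the right of the mitotic genes.

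The interval of each difference shows what these libraries could resolve. The 95% interval lay inside a 2-fold change in either direction, a log2 difference between -1 and 1, for 12 of the 38 members and for 68.4% of all tested genes. It did so for 7 of the 16 G1/S and S phase members and for 1 of the 17 tested mitotic members, Ccna2. The standard error of a log2 difference had a median of 0.53 over the 10 tested members under a mean of 20 normalized counts, and of 0.17 over the 10 members at 100 or more. For the other 16 tested mitotic members the interval reached a 2-fold change in at least 1 direction, with 3 libraries a group.

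**Figure D2:**
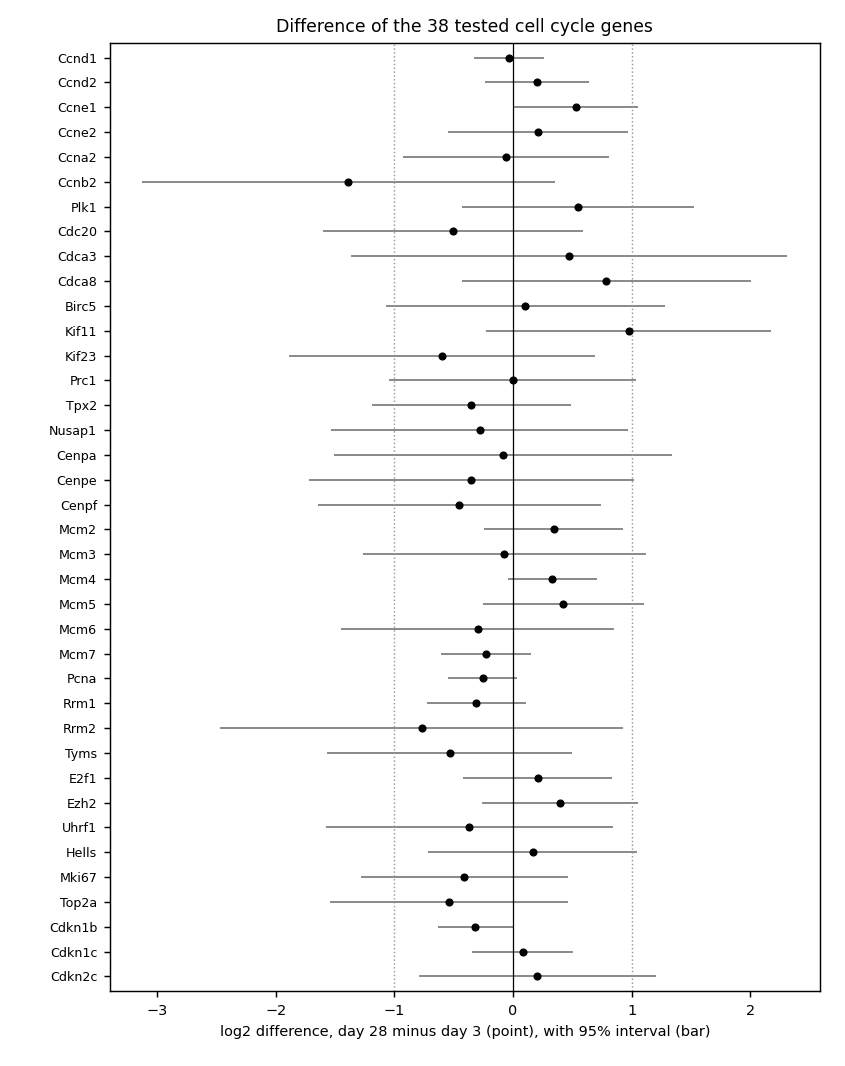
Log2 difference, day 28 minus day 3, for the 38 tested genes (points) with 95% intervals from limma (bars); dotted lines mark 2-fold changes. Narrow bars belong to Ccnd1, Pcna, Mcm4 and Cdkn1b, wide bars to Ccnb2, Cdca3 and Rrm2, and the bars of Ccne1 and Cdkn1b are the only ones that stop short of 0.

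The members spanned a wide range of levels per length of exon. Cdkn1b had the highest level over the 6 libraries, 204 normalized counts per kb of merged exons, followed by Pcna at 176, Ccnd2 at 115 and Ccnd1 at 99.9. Next came Ccne1 at 58.7, Cdkn1c at 56.2 and Mcm4 at 49.3. Bub1 was lowest at 0.701 and Bub1b at 0.783, and Cdk1 had 1.42. The 5 leading genes thus included both D-type cyclins, a CDK inhibitor and the replication clamp, which are not restricted to mitosis.

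Mki67 encodes Ki-67, the protein used to stain dividing cells, and Top2a the topoisomerase that untangles sister chromatids. Mki67 stood at 34.9, 50.0025 and 26.5 normalized counts in day 28 replicates 1 to 3, and at 52.2, 64.8 and 32.9 in day 3 replicates 1 to 3. The groups overlapped, since day 28 replicate 2 was well above day 3 replicate 3. The log2 difference was -0.41 (SE 0.39, 95% interval -1.29 to 0.46, adjusted p = 0.691). Top2a had 29.0, 33.0 and 19.0 normalized counts at day 28 and 65.9, 28.8 and 30.4 at day 3. For Top2a the library of day 3 replicate 1 alone lay above the day 28 range, and the difference was -0.54 (SE 0.44, adjusted p = 0.640). It was -0.16 without that library, and -0.20 without day 3 replicates 1 and 2. The latter fit, given for other genes below too, leaves replicate 3 as the only day 3 library and was chosen after seeing the data. The Mki67 difference was 0.13 when day 3 replicates 1 and 2 were left out.

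The D-type cyclins, which pair with CDK4 and CDK6 to start G1, were among the best counted members. Ccnd2, made by neural progenitors and also by some postmitotic neurons, had 1257, 1001 and 1186 normalized counts at day 28. At day 3 it had 756, 962 and 1346. The highest and the lowest library were both of day 3, so the day 28 values lay inside the day 3 range. Its log2 difference was 0.20 (SE 0.19, adjusted p = 0.699), with the opposite sign, -0.24, when day 3 replicates 1 and 2 were left out. Ccnd1 had 491, 499 and 405 normalized counts at day 28 and 511, 429 and 487 at day 3. Its difference of -0.03 had a 95% interval of -0.33 to 0.26, within which a change of 2-fold did not fall (adjusted p = 0.940).

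Ccne1, a cyclin E that activates CDK2 at the entry to S phase, had 156, 233 and 166 normalized counts at day 28 and 133, 99.7 and 151 at day 3. All day 28 libraries lay above all day 3 libraries, by a narrow margin between day 28 replicate 1 and day 3 replicate 3. The means were 185 ± 42.0 and 128 ± 25.95 at day 28 and day 3 (SD, n = 3 each), with a log2 difference of 0.53 (SE 0.23, adjusted p = 0.371), which was 0.27 when day 3 replicates 1 and 2 were left out. Groups that did not overlap were found for 3 of the 38 tested members, all higher at day 28, and for 18.9% of all tested genes in either direction, made up of 9.71% higher and 9.21% lower at day 28. Ccne2, the other cyclin E gene, had 48.9, 73.2 and 71.1 normalized counts at day 28 and 76.0, 56.6 and 37.7 at day 3, and the groups overlapped (log2 difference 0.21, adjusted p = 0.826).

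The mitotic cyclins and their kinase were counted in few reads. Ccnb2, a B-type cyclin, had 2.99, 3.57 and 17.1 normalized counts at day 28 and 17.4, 12.3 and 23.1 at day 3. Day 28 replicates 1 and 2 were low and replicate 3 lay within the day 3 range. The log2 difference of -1.39 was the most negative of the 38 members, with an SE of 0.77 (adjusted p = 0.473). Cdk1, which forms the mitotic kinase with cyclin B, fell under the filter, with 14, 8 and 1 reads at day 28 and 15, 6 and 0 reads at day 3. It was read in both groups at much the same numbers, 23 reads over the day 28 libraries and 21 over those of day 3. Ccna2, the cyclin of S phase and G2, had a mean of 41.4 ± 15.8 normalized counts at day 28 and 40.8 ± 2.17 at day 3 (SD, n = 3 each; log2 difference -0.06, adjusted p = 0.966).

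Of the 11 mitotic kinase, checkpoint and anaphase-promoting complex genes, 5 reached the filter and 0 passed the test. Cdca8, the borealin subunit of the chromosomal passenger complex, had 25.96, 13.4 and 21.8 normalized counts at day 28 and 14.7, 8.23 and 10.95 at day 3 (log2 difference 0.79, SE 0.54, adjusted p = 0.567). Plk1, a kinase of mitotic entry, had 23.0, 32.1 and 25.6 at day 28 and 16.5, 14.4 and 24.3 at day 3 (log2 difference 0.54, adjusted p = 0.628). Cdc20, an activator of the anaphase-promoting complex, had 15.97, 12.5 and 13.3 at day 28 and 25.6, 21.6 and 14.6 at day 3 (log2 difference -0.51, adjusted p = 0.696). In each of these 3 genes the groups overlapped. With day 3 replicates 1 and 2 left out, the differences were 0.79 for Cdca8, 0.13 for Plk1 and -0.072 for Cdc20. Cdca3 and Birc5, which encodes survivin, had log2 differences of 0.47 and 0.10.

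The other 6 genes of this group were under the filter, with between 19 and 61 reads in the 6 libraries together. Ube2c, the ubiquitin-conjugating enzyme of the anaphase-promoting complex, was the most uneven. It had 3, 10 and 4 reads at day 28 and 14, 13 and 8 reads at day 3, and in normalized counts all day 28 libraries, at 2.99, 8.93 and 3.79, lay below all day 3 libraries, at 12.8, 13.4 and 9.74. Summed, 17 reads at day 28 (exact 95% Poisson interval 9.90 to 27.2) stood against 35 at day 3 (24.4 to 48.7), where intervals cover counting error only. Bub1, a checkpoint kinase, had 9 reads at day 28 and 10 at day 3, Bub1b had 11 and 9, Aurkb, the kinase of the passenger complex, 14 and 13, and Aurka, the centrosomal kinase, 30 and 31. Pbk, a mitotic kinase, had 31 reads at day 28 and 20 at day 3. The members nearest to the filter were Cdca3 at a mean of 11.5 and Ccnb2 at 12.7 inside it, and Aurka at 9.76 and Kif20a at 9.50 outside it.

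Among the 9 spindle, midzone and kinetochore genes 8 were tested and 0 passed, with 1 positive and 7 negative differences. The positive one was Kif11, the kinesin that pushes spindle poles apart, at 19.0, 36.6 and 18.0 normalized counts at day 28 and 10.99, 15.4 and 8.52 at day 3. The groups did not overlap, day 28 replicate 2 was the highest library, and the log2 difference was 0.98 (SE 0.53, adjusted p = 0.463). Kif23, a kinesin of the central spindle, had 9.98, 12.5 and 14.2 at day 28 and 31.1, 10.3 and 20.7 at day 3 (log2 difference -0.60, adjusted p = 0.694). Its day 3 libraries spread widely and enclosed the day 28 values but for replicate 1, and the difference was -0.25 without day 3 replicate 1. Tpx2, a spindle assembly factor, had 31.9, 23.2 and 45.5 at day 28 and 51.3, 37.0 and 37.7 at day 3 (log2 difference -0.35, adjusted p = 0.729). Prc1, which bundles midzone microtubules, averaged 18.0 ± 0.996 normalized counts at day 28 and 18.3 ± 4.30 at day 3 (SD, n = 3 each). Cenpe and Cenpf, kinetochore proteins, had differences of -0.35 and -0.45, and Cenpa, the centromeric histone, of -0.09. Kif20a, a cytokinesis kinesin, was not tested and had 35 reads at day 28 and 23 at day 3.

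Replication genes were counted more deeply, and the licensing helicase subunits had differences of both signs. Mcm4 had 214, 192 and 186 normalized counts at day 28 and 155, 176 and 140 at day 3. Its groups did not overlap, with means of 197 ± 14.6 and 157 ± 18.0 at day 28 and day 3 (SD, n = 3 each; log2 difference 0.33, SE 0.16, adjusted p = 0.424). Mcm5 had 74.9, 58.0 and 92.9 at day 28 and 69.6, 55.5 and 42.6 at day 3 (log2 difference 0.42, adjusted p = 0.580). Mcm2 had 83.9, 76.8 and 71.1 at day 28 and 51.3, 77.1 and 56.0 at day 3 (log2 difference 0.34, adjusted p = 0.604). In both of these genes a day 3 library reached the day 28 values. Mcm3, Mcm6 and Mcm7 had negative differences of -0.07, -0.30 and -0.23. Pcna, the sliding clamp of replication and repair, had 346, 421 and 390 normalized counts at day 28 and 415, 485 and 482 at day 3. Only day 28 replicate 2 reached the lowest day 3 library, and the difference was -0.26 (SE 0.13, 95% interval -0.55 to 0.03, adjusted p = 0.425). Of these 7 genes 0 passed.

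Of the 3 genes of deoxynucleotide synthesis 0 passed, and the differences were all negative. The sign for Rrm2 depended on a single library, while the Rrm1 difference shrank but stayed negative without day 3 replicate 1. Rrm1, the large subunit of ribonucleotide reductase, had 223, 227 and 191 normalized counts at day 28 and 325, 264 and 214 at day 3 (log2 difference -0.31, SE 0.18, adjusted p = 0.505). Day 3 replicate 3 lay among the day 28 values, and the Rrm1 difference was -0.16 without day 3 replicate 1 and -0.0079 without day 3 replicates 1 and 2. Rrm2, the subunit made in S phase, had 33.9, 3.57 and 22.7 at day 28 and 25.6, 20.6 and 31.6 at day 3 (log2 difference -0.77, SE 0.75, adjusted p = 0.704). Day 28 replicate 2 alone was low for Rrm2, and without it the difference was 0.12. Tyms, thymidylate synthase, had 16.97, 13.4 and 22.7 at day 28 and 28.4, 18.5 and 31.6 at day 3 (log2 difference -0.54, adjusted p = 0.653).

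Transcription and chromatin factors of S phase did not pass either, 0 of 4. Ezh2, the histone methyltransferase of Polycomb complexes, had 97.8, 91.1 and 72.0 normalized counts at day 28 and 89.8, 63.7 and 48.7 at day 3 (log2 difference 0.40, SE 0.29, adjusted p = 0.594). E2f1, which switches on S phase genes, had 114, 154 and 118 at day 28 and 82.4, 99.7 and 162 at day 3 (log2 difference 0.21, adjusted p = 0.793). Uhrf1, a cofactor of DNA methylation at replication forks, had 14.97, 18.8 and 32.2 at day 28 and 30.2, 45.2 and 14.6 at day 3 (log2 difference -0.37, adjusted p = 0.810). For E2f1 and Uhrf1 the day 28 values fell inside the day 3 range. The direction of both turned without day 3 replicates 1 and 2, to -0.35 for E2f1 and 0.49 for Uhrf1. Hells, a chromatin remodeller, had 76.9 normalized counts in day 28 replicate 1 and between 33.2 and 46.3 in the other libraries.

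The CDK inhibitor Cdkn1b encodes p27, which keeps postmitotic cells out of the cycle. It had 879, 785 and 799 normalized counts at day 28, and 1121, 1155 and 825 at day 3. Day 3 replicates 1 and 2 stood above every other library, while day 3 replicate 3 lay among the day 28 values. The means were 821 ± 50.5 at day 28 and 1034 ± 181 at day 3 (SD, n = 3 each), with a log2 difference of -0.32 (SE 0.14, 95% interval -0.63 to -0.0017, adjusted p = 0.371). It was -0.47 without day 3 replicate 3 (adjusted p = 0.0511), and -0.0094 with neither day 3 replicate 1 nor 2 in the fit. These are the libraries rich in granule cell markers. With the mean deviation of those markers as a covariate, the Cdkn1b difference was -0.14 (adjusted p = 0.833). That mean deviation was -2.02, -2.01 and 0.462 in day 28 replicates 1 to 3. At day 3 it was 2.625, 2.45 and -1.51 in replicates 1 to 3. It ran partly with day, so the fit cannot separate granule cell content from day. Whether the share of cerebellum had a part in the Cdkn1b values was not tested.

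Cdkn1c, which encodes p57, another inhibitor of the same family, had 122, 113 and 118 normalized counts at day 28 and 98.01, 115 and 122 at day 3, with a log2 difference of 0.08 (SE 0.19, 95% interval -0.35 to 0.51, adjusted p = 0.894). Cdkn2c, which encodes p18 of the INK4 family, had 19.97, 23.2 and 38.9 at day 28 and 29.3, 21.6 and 18.3 at day 3 (log2 difference 0.21, adjusted p = 0.878). The day 28 and day 3 values of both inhibitors overlapped.

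**Figure D3:**
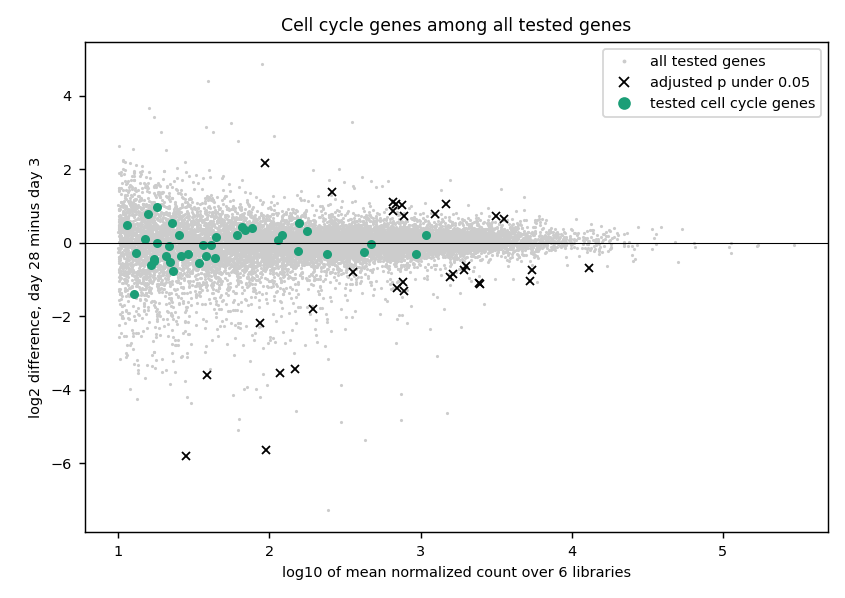
Log2 difference, day 28 minus day 3, against the log10 mean normalized count for all 16162 tested genes (grey), the 31 genes past an adjusted p of 0.05 (crosses) and the 38 tested cell cycle genes (green). The green points lie inside the grey cloud at every level, with Ccnb2 lowest at -1.39 and Kif11 highest at 0.98.

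Libraries of the same day differed by more than counting noise for most members. The variance of the reads within groups, divided by that of counting alone, had a median of 2.90 over the 19 members under a mean of 20 normalized counts, 4.46 over the 18 from 20 to under 100, and 5.76 over the 10 at 100 or more. It exceeded 1 for 43 of the 47 members, and was largest for Ccnd2, at 49.1, and Cdkn1b, at 15.7. Prc1, at 0.481, and Cdkn1c, at 0.747, had values under 1. Summed over all members, the level was 4839, 4691 and 4632 normalized counts at day 28 and 4854, 4851 and 4850 at day 3. The highest members weigh most in this sum, and they moved in opposite directions. From day 3 replicate 1 to replicate 3, Ccnd2 went from 756 to 1346 and Cdkn1b from 1121 to 825. The reads of all members were 0.0327% to 0.0341% of a library at day 28 and 0.0333% to 0.0353% at day 3.

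**Figure D4:**
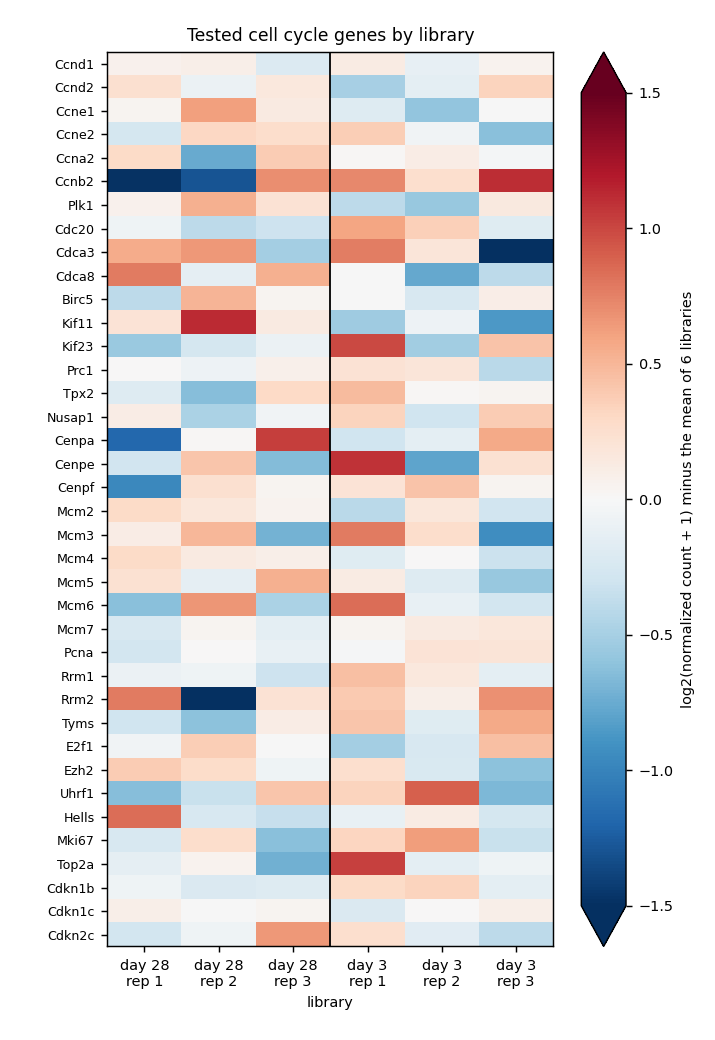
Deviation of log2(normalized count + 1) from the mean of the 6 libraries for the 38 tested genes, with day 28 libraries left of the line and day 3 libraries right of it; colours are capped at 1.5 in either direction. No block of rows separates the days, and the column of day 3 replicate 1 is reddest for Cenpe, Top2a, Kif23 and Mcm6.

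Day 3 replicate 1 was the library with the highest mitotic level. The 26 mitotic members summed to 387, 424 and 440 normalized counts at day 28 and to 554, 426 and 393 at day 3. In that library 13 of the 47 members, and 8 of the 26 mitotic members, had their highest value. Top2a, Cenpe and Kif23 were among them, while Mki67 was highest in day 3 replicate 2. The other libraries held the highest value of 4 to 10 members, and of 2 to 5 mitotic members. Day 3 replicate 3 held the lowest value of 13 members, day 28 replicate 1 that of 11, and each other library that of 4 to 8. The like share over all tested genes was not computed, so whether these counts are particular to the members was not tested. The G1/S and S phase members summed to 1683, 1846 and 1646 at day 28 and 1785, 1743 and 1659 at day 3. Gene by gene, 2 day 3 libraries stood apart. The median log2 deviation of these members from their mean was 0.19 in day 3 replicate 1 and -0.27 in day 3 replicate 3. It lay between -0.0074 and 0.088 in the other libraries.

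Markers of other cells also stood high in day 3 replicate 1. The 8 microglia markers summed to between 4479 and 4874 normalized counts at day 28 and to 6769, 4209 and 5032 at day 3, with 0 of 8 called and none at 0. The 8 endothelial markers summed to between 2892 and 3064 at day 28 and 4215, 2510 and 2855 at day 3, with 0 of 8 called. The 12 interferon-stimulated genes summed to between 307 and 403 at day 28 and 2996, 552 and 335 at day 3, with 0 of 11 tested called. The 9 neutrophil and monocyte markers summed to 12.98, 7.14 and 18.01 normalized counts at day 28 and 58.6, 85.3 and 19.5 at day 3, with 1 tested and 0 called, and Ly6g had no read in any library. The 8 lymphocyte markers, which include the pan-leukocyte gene Ptprc, summed to between 314 and 437 at day 28 and between 209 and 314 at day 3, with 2 tested and 0 called, and Cd3d had no read. The part of any of these lists in the mitotic level of day 3 replicate 1 was not tested.

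**Figure D5:**
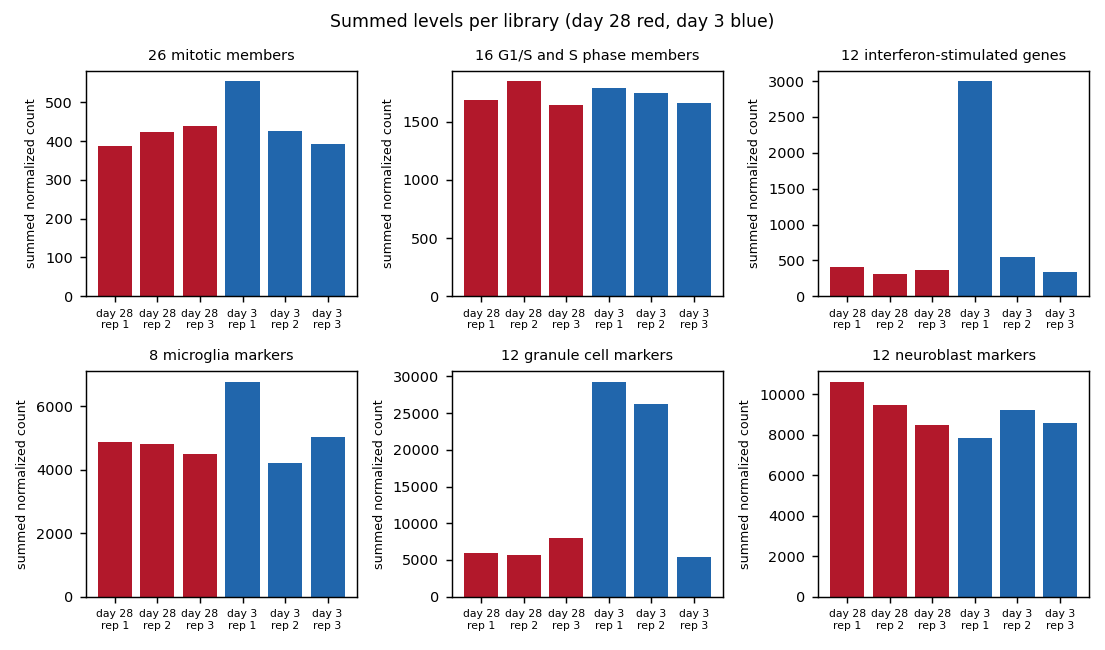
Summed normalized counts in each library (day 28 red, day 3 blue) for the 26 mitotic and 16 G1/S and S phase members and for 4 marker lists. Day 3 replicate 1 is the highest bar for mitotic members (554), interferon-stimulated genes (2996) and microglia markers (6769), and the granule cell bars are high in day 3 replicates 1 and 2.

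Neuroblasts arise from dividing progenitors. Of their 12 markers 0 passed, but 8 had an unadjusted p under 0.05, against 13.4% of all tested genes. The log2 differences were positive for 9 and negative for 3, with a median of 1.30. Without overlap, 6 were higher and 1, Nrep, was lower at day 28, against 9.71% and 9.21% of all tested genes. Nrep had a log2 difference of -0.95 (SE 0.29, adjusted p = 0.215). Dlx6, Dcx and Nrep are named here after their values were seen. Dlx6, a homeobox gene of these cells, averaged 287 ± 36.1 normalized counts at day 28 and 144 ± 26.3 at day 3 (SD, n = 3 each), with a log2 difference of 1.00 (SE 0.18, adjusted p = 0.0786). Dcx, a microtubule protein of migrating neuroblasts, averaged 915 ± 304 at day 28 and 302 ± 141 at day 3 (SD, n = 3 each; log2 difference 1.69, adjusted p = 0.122). The 12 markers, which include the widely expressed neuronal tubulin Tubb3 (mean 4512 at day 28 and 4545 at day 3), summed to 10617, 9450 and 8496 normalized counts at day 28 and 7851, 9215 and 8587 at day 3. A shift to day 28 was not particular to neuroblast markers. The 10 striatal markers had 10 positive differences, with a median of 0.73, and 9 had an unadjusted p under 0.05. Without overlap, 7 striatal markers were higher at day 28. Whether the tissue content of the libraries had a part in the neuroblast values was not tested. Oligodendrocyte precursor markers summed to between 5086 and 5573 at day 28 and to between 5688 and 5958 at day 3, with 0 of 10 called and a median of -0.09. Neural progenitor markers summed to between 2318 and 3053 at day 28 and between 2320 and 3492 at day 3, with 0 of 9 called. For the tissue label, the 10 neuronal and glial markers were all above the filter. They summed to between 162660 and 177875 normalized counts at day 28 and between 181903 and 199251 at day 3.

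The rest of the cell cycle pathway gave the same count. Of 106 further genes tested, from lists of replication, mitosis, E2F and RB, and inhibitor genes, 0 passed. There were 46 positive and 60 negative differences, and 12 genes had an unadjusted p under 0.05, against 13.4% of all tested genes. Without overlap, 8 were higher and 8 lower at day 28, against 9.71% and 9.21% of all tested genes. The further G1/S and replication genes had 0 of 40 called and a median of -0.10, the further mitosis genes 0 of 39 and a median of 0.02, and the E2F, RB and MYB genes 0 of 18 and a median of -0.06. The inhibitors and p53 targets had 0 of 9 called and a median of -0.08. Ccnd3, the third D-type cyclin, had 210, 202 and 233 normalized counts at day 28 and 354, 295 and 280 at day 3. These groups did not overlap (log2 difference -0.52, SE 0.15, adjusted p = 0.186). Slbp, which binds the stem-loop of histone mRNAs, had a difference of -0.43 and Rfc5, a clamp loader subunit, of 0.55 (adjusted p = 0.253 and 0.275).

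Among the further mitosis genes, Anln, an actin-binding protein of cytokinesis that is also made in oligodendrocytes, had 504, 597 and 587 normalized counts at day 28 and 718, 690 and 739 at day 3 (log2 difference -0.35, adjusted p = 0.216). Cdca7 had 64.9, 49.1 and 47.4 at day 28 and 17.4, 15.4 and 36.5 at day 3 (log2 difference 1.27, adjusted p = 0.236). Kif22, a chromosome-bound kinesin, had a difference of 1.63 (adjusted p = 0.285). The groups of all 3 genes did not overlap, and none passed. Btg2, an antiproliferative gene that is also induced by neuronal activity, had 484, 808 and 314 normalized counts at day 28 and 107, 185 and 246 at day 3. Its difference of 1.55 had the smallest adjusted p of the further genes (SE 0.38, adjusted p = 0.138). E2f6, Mycn and Rbl1 had differences of -0.27, 0.74 and -0.87, and Trp53 and Ccng1 of 0.30 and -0.13, with adjusted p of 0.348 or more.

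Some values carry limits of annotation. By the GENCODE M21 models, 14 members share exonic bases with a gene on the opposite strand, among them Ccnd1, Ccnd2, Ccna2, Kif20a, Prc1 and Cdkn1c. The libraries were stranded, but whether the counting used strand was not given in the sources used here, so reads of such partners cannot be told apart. Ccnb1, Ccnb2, Tyms and Pcna have processed pseudogenes, and reads shared with these make their values uncertain.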

How the data were processed

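The authors deposited log2 values for 56748 genes in 6 libraries, per the file headers. Per the labels' protocols, polyadenylated RNA was selected from 1 µg of TRIzol-extracted brain RNA and stranded libraries were built. Per the submitters' processing notes the build was GRCm39, while the aligner, counter and annotation are not given in the sources used here. Back-transformed, 100% of values were whole reads (tolerance 0.001) after multiplying by 1 size factor a library (0.822 to 1.12), which makes the deposited unit log2(reads / size factor + 1). Symbols came from GENCODE M21 (52073 matched); exon lengths from its GRCm38 models. Day 28 was compared with day 3 by limma 3.58.1 (R 4.3.3) with an intensity trend on log2(normalized count + 1), group as the only term, two-sided tests and Benjamini-Hochberg adjustment over 16162 genes with a mean of at least 10. Differences on this scale understate changes of low genes. The procedure was run on simulated data whose spread between libraries was not fitted to these libraries. That run does not show how often a change would be found here. Libraries of a group differed beyond counting noise (chi-square per degree of freedom at least 8.93), so each counted as 1 sample. Members and lists were chosen with earlier results of these data known. Every member could be named, and values per library are given for the 3 of smallest p in each role list and for 10 listed genes, and further genes were named as the 3 of smallest p per list. Alternatives are listed in the closing section. Figures used matplotlib 3.10.9.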

Additional observations from a re-analysis of the deposited data

How the results depend on the processing

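The count of 0 members past the threshold held under every alternative run, including an adjusted p of 0.1, and the smallest adjusted p of a member was 0.0511, for Cdkn1b without day 3 replicate 3. The count over all tested genes, 31, was unstable: 68 with no filter, 48 with a mean of at least 1, 3 with no intensity trend, 74 with robust hyperparameters, 69 with library weights, 0 with voom, 2 with the granule cell covariate, 152 at an adjusted p of 0.1, between 1 and 618 with single libraries left out (618 without day 3 replicate 3), and 76 without day 3 replicates 1 and 2, an alternative chosen after seeing the data in which the lone day 3 library is assumed to vary like the others. With a replicate block the count was 0; same-numbered libraries deviated together with correlations of 0.034, 0.13 and -0.062, so the numbers were not taken to pair them, and the block changed no call of a member. The further cell cycle genes had 0 called except 1 without day 3 replicate 3, Btg2. The median log2 difference of the members, -0.07, was 0.20 over the 14 members with a mean of at least 50 and lay between -0.20 (day 3 replicate 3 left out) and 0.0031 (day 3 replicate 1 left out). Of 736 member values under 20 alternatives, 698 kept their sign and 38, of 18 members, changed it; none was called. Under the granule cell covariate the log2 differences were -0.062 for Ccnd2, 0.41 for Uhrf1, -0.19 for E2f1, 0.14 for Ccna2, -0.0065 for Cdkn1c, 0.28 for Prc1 and 0.29 for Mcm3, and library weights gave 0.022 for Prc1. Without day 3 replicates 1 and 2 they were -0.24 for Ccnd2, 0.49 for Uhrf1, -0.044 for Birc5, 0.13 for Mcm6, -0.35 for E2f1, 0.0037 for Ccna2, 0.13 for Mki67, -0.04997 for Cdkn1c, 0.40 for Prc1 and 0.89 for Mcm3. With single libraries left out the sign changed within ranges of -0.13 to 0.33 for Birc5, -1.35 to 0.12 for Rrm2, -0.24 to 0.97 for Cdca3, -0.21 to 0.38 for Hells, -0.70 to 0.047 for Mcm6, -0.26 to 0.30 for Ccna2, -0.048 to 0.45 for Ccne2, -0.068 to 0.40 for Cdkn2c, -0.62 to 0.48 for Cenpa, -0.0104 to 0.14 for Cdkn1c, -0.20 to 0.11 for Prc1, -0.56 to 0.30 for Mcm3, -0.83 to 0.10 for Cenpe and -0.11 to 0.062 for Ccnd1. The cause of these moves was not tested. Low read numbers kept 9 mitotic members out of the test, and both counting noise and the spread between libraries widen the intervals of the others.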
